A study of Rattus norvegicus with 12 samples.

Results

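The miR-26 family was examined in small RNA libraries of hippocampal tissue. The rats were adult Sprague Dawley males, aged P70 to P80. Its 4 mature members, listed as rno-miR-26a-5p, rno-miR-26b-5p, rno-miR-26a-3p and rno-miR-26b-3p and written without the species prefix below, were chosen by name as both arms of the precursors miR-26a and miR-26b, out of 753 mature miRNAs listed for each rat. All 4 were found, and 3 of them were among the 420 miRNAs that passed the filter on low counts, which asked for at least 10 reads in more than 2 of the 12 libraries. The fourth, miR-26a-3p, never reached 10 reads, was left out of that fit and is mainly described. Of the 12 libraries, 4 came from rats injected with vehicle and 8 from rats injected with 4 g/kg ethanol, each library from 1 rat, and all tissue was taken 3 h after injection. The sample labels give the tissue as right hippocampus and the paper as dorsal hippocampus. Both sources name 8 rats per group, and the other 4 vehicle rats are not analysed here. The design holds a single ethanol dose, and the groups share time, sex and age range. Tissue was read whole, so fewer cells of a type and less RNA per cell cannot be told apart.

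A miRNA precursor folds into a hairpin from which 2 short strands are cut, 1 from each arm, named 5p and 3p. Usually 1 strand is kept in the silencing complex and pairs with target mRNAs through its seed, bases 2 to 8, while the other is degraded. In mammals the miR-26 genes lie inside genes of the Ctdsp family, which encode small phosphatases that work with REST, a repressor of neuronal genes outside neurons. A known target of miR-26 is Ezh2, a histone methyltransferase. In hippocampal neurons miR-26a is known for a role in dendritic spines. In the gene table of RefSeq for GRCr8, a rat assembly, which holds 2 Mir26 loci, Mir26a lies within the span of Ctdspl and Mir26b within that of Ctdsp1.

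The mature sequences are shown because the likeness of the 5p strands bears on every count below. They were matched by name and taken from RefSeq (GRCr8). Mir26a lies at chr8:127633048-127633137 and Mir26b at chr9:83425709-83425793, both on the plus strand of GRCr8. The deposited counts themselves carry no coordinates. Capitals mark the seed.
miR-26a-5p: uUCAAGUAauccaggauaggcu
miR-26b-5p: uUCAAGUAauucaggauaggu
miR-26a-3p: cCUAUUCUugguuacuugcac
miR-26b-3p: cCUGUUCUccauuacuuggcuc

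The 5p strands shared the seed UCAAGUA, which no other mature miRNA of the 693 in the RefSeq table carried. Over their 21 shared positions, 19 bases were identical, including the first 10. Counted from 1 at the 5′ end of miR-26a-5p, the differences were C11U and C21U, and miR-26a-5p was 1 base longer. The 3p strands differed at 7 of 21 positions, with A4G inside the seed, so their seeds CUAUUCU and CUGUUCU were not shared with each other or with any other mature miRNA of the table.

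The hairpins are shown to place both strands, in capitals, within their precursors.
Mir26a: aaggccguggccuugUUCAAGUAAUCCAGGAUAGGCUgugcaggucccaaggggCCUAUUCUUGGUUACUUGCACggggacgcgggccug
Mir26b: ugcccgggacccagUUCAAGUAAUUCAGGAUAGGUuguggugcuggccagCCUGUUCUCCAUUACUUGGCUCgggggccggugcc

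By estimated count both 5p strands were among the most abundant miRNAs of the hippocampus, and both 3p strands were close to the limit of detection. The separate 5p levels and ranks are uncertain, as described below, whereas the sum of both does not depend on how reads were divided between them. Levels are given as CPM, counts scaled to the same TMM-corrected library total in each rat (TMM corrects totals for differences in composition). Library totals ranged from 1960704 to 4917928 estimated counts. A floor of 3 counts corresponded to between 0.631 and 1.57 CPM, and this floor covers counting error only. In every library miR-26a-5p ranked 3 and miR-26b-5p ranked 4 by count. Together they took between 13.6% and 16.1% of the counts of a library.

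In vehicle rats 9, 10, 19 and 20, expression of miR-26a-5p was 79894, 74088, 82557 and 77115 CPM. In the 8 ethanol rats it ranged from 68550 (rat 3) over a median of 74186 to 84520 (rat 23). The highest and the lowest level both came from ethanol rats, and the groups overlapped. Expression of miR-26b-5p in the same vehicle rats was 76505, 71176, 79021 and 73823 CPM. In ethanol rats it ranged from 65518 (rat 3) over a median of 71145 to 81084 (rat 23). The order of the rats was the same for both strands.

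**Figure D1:**
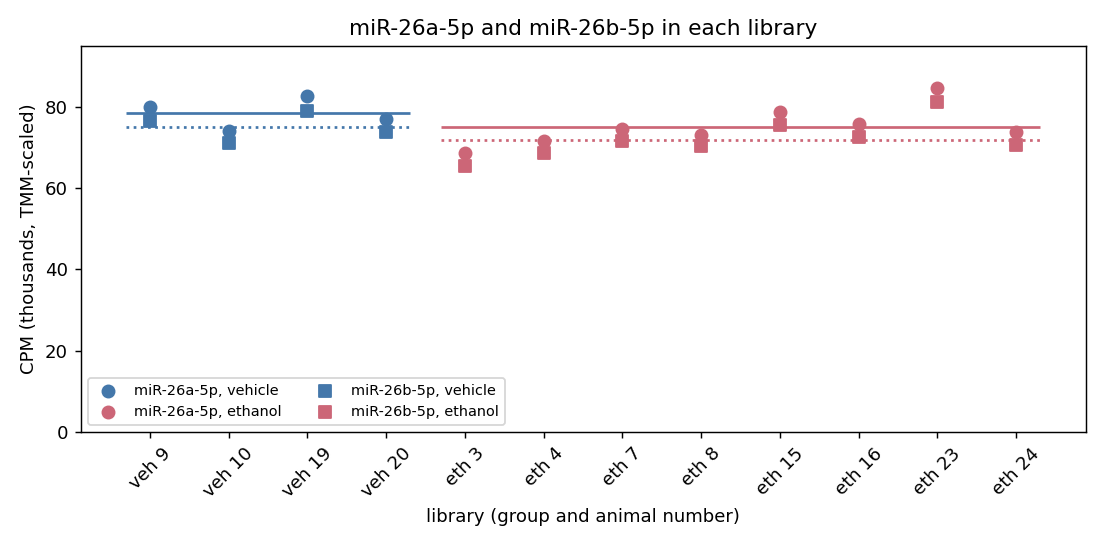
CPM (TMM-scaled, axis in units of 1000 CPM) of miR-26a-5p (circles) and miR-26b-5p (squares) in each of the 4 vehicle (blue) and 8 ethanol (red) libraries, with group means as solid lines for miR-26a-5p and dotted lines for miR-26b-5p. The square sits a little below the circle in every library, and ethanol rats lie both below and above the vehicle rats.

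The 5p levels varied little between rats. The highest level was 1.23 times the lowest for miR-26a-5p and 1.24 times for miR-26b-5p. The SD of log2 CPM over the 12 libraries was 0.09 for each, against a median of 0.24 over the 420 retained miRNAs, and 11 of these had a lower SD than miR-26a-5p. These SDs include counting error, which is smaller for abundant miRNAs.

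Across the order of mean levels, miR-30a-5p, a brain-abundant miRNA of another family, stood next above miR-26a-5p with 97863 CPM and was higher in 12 of 12 libraries. Next below miR-26b-5p was miR-143-3p, typical of smooth muscle and vessels, with 46392 CPM and lower in 12 of 12 libraries. Between miR-26a-5p (mean 76187 CPM) and miR-26b-5p (mean 73015 CPM), miR-26a-5p was also the higher in 12 of 12 libraries, but by a small margin. That margin may depend on how any reads that fit both names were divided, which was not tested.

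The ratio of miR-26a-5p to miR-26b-5p was nearly fixed. It lay between 1.0409 and 1.0463 over all 12 libraries, while the library totals differed 2.51-fold. As a share, miR-26a-5p made up between 51.0% and 51.1% of the counts of both strands. The lowest share, in vehicle rat 10, had a 95% Wilson interval of 50.8% to 51.2%, and the highest, in ethanol rat 3, had one of 50.9% to 51.3%. Intervals of this kind cover counting error only. The difference in level between the strands lay between 2912 and 3536 CPM.

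This ratio varied less than independent counting would give. The SD of its log2 value was 0.0022 over the 12 libraries, and counting error alone gives 0.0045 when the reads of each strand are counted independently. The chi-square of the table of 2 strands by 12 libraries was 2.37 on 11 degrees of freedom, or 0.215 per degree of freedom. Among all 12720 pairs of the 160 retained miRNAs with a mean of at least 500 counts, the pair miR-26a-5p and miR-26b-5p was the only one whose SD was under its counting SD. The next lowest SD, 0.05 for miR-27a-3p and miR-27b-3p, was 22.0 times larger. The median SD was 0.27 over all pairs and 0.16 over the 71 pairs that share bases 2 to 8.

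**Figure D2:**
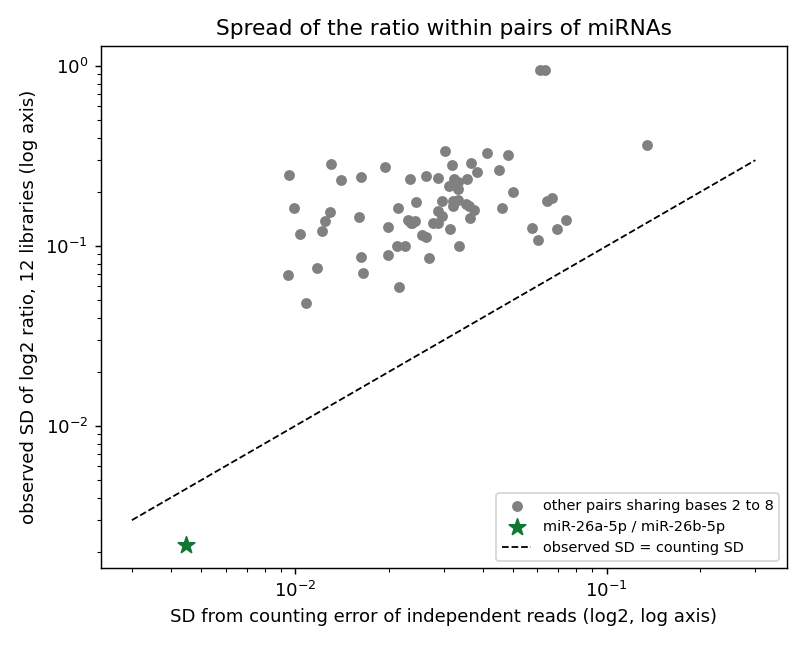
Observed SD of the log2 ratio over 12 libraries (vertical, log axis) against the SD that counting error of independent reads gives (horizontal, log axis) for 71 pairs of miRNAs sharing bases 2 to 8. The pair miR-26a-5p and miR-26b-5p (star) lies below the dashed line of equality, at 0.0022 against 0.0045, and the 70 other pairs (grey) lie above it.

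Estimated counts of miR-26a-5p were fractional in 12 of 12 libraries and those of miR-26b-5p in 11 of 12. Counts of both 3p strands were whole in 12 of 12. How reads that fit both 5p names were divided is not given in the sources used here, and its part in the fixed ratio was not tested. The sum of both 5p strands does not depend on that division, whereas the separate levels of miR-26a-5p and miR-26b-5p, and any difference between them, are uncertain. For the sum, vehicle rats had 153545 ± 7025 CPM (mean ± SD, n = 4) and ethanol rats 147032 ± 9518 CPM (n = 8).

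Across the 12 libraries, log2 CPM of miR-26a-5p and miR-26b-5p correlated with r = 0.9997 and rho = 1.00. The permutation p was 1e-05 for each, the smallest that 100000 permutations can give, with an adjusted p of 6e-05 over the 6 relations examined. Without vehicle rat 19 and ethanol rat 23, the 2 libraries farthest from the median, r was 0.999. Within the 8 ethanol libraries it was 0.9998. These values restate the nearly fixed ratio of the 2 counts and give no separate support for it. The log2 ratio of the strands showed no clear relation to the log2 library total (r = 0.43, permutation p = 0.161, adjusted p = 0.322; rho = 0.49, permutation p = 0.109, adjusted p = 0.328). Without vehicle rats 19 and 20 that r was 0.26, and within the ethanol libraries it was 0.10.

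The 3p strands had few reads, and nearly all of them came from miR-26b. In vehicle rats 9, 10, 19 and 20, miR-26b-3p had 17, 5, 24 and 21 reads. In ethanol rats it had between 3 (rat 7) and 18 reads (rat 24), with a median of 13.5. Its reads followed no group, and the fewest came from rats 7 and 10, the smallest ethanol and the smallest vehicle library. Scaled to CPM these rats were also the lowest, at 1.57 and 2.13 against a median of 4.69 over all libraries. The part of library size in this was not tested. For miR-26a-3p there were 0, 0, 3 and 2 reads in the same vehicle rats and at most 1 in each ethanol rat. It was at 0 in 6 of 12 libraries, so no library exceeded the floor of 3 counts.

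**Figure D3:**
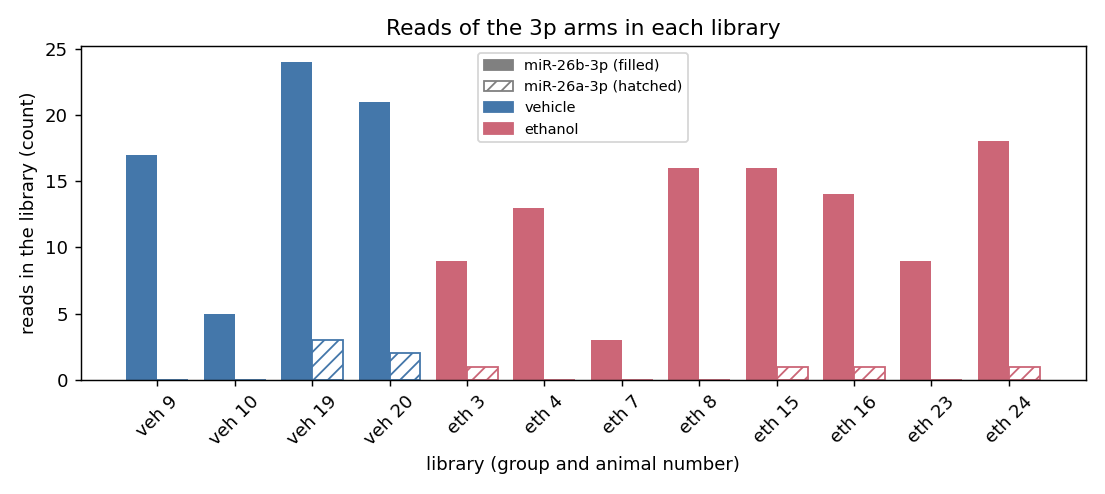
Reads per library (count) of miR-26b-3p (filled bars) and miR-26a-3p (hatched bars) in the 4 vehicle (blue) and 8 ethanol (red) libraries. The filled bar is the taller in 12 of 12 libraries, with 3 to 24 reads against 0 to 3.

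Over all libraries miR-26b-3p had 165 reads and miR-26a-3p had 9. The share of miR-26a-3p in these 174 reads was 5.17% (95% Wilson interval 2.74% to 9.54%), and miR-26b-3p was higher in 12 of 12 libraries. Counts of the 5p strands were close to equal, and which of those is the higher is uncertain, as described above. The share of miR-26a-3p was 6.94% (3.00% to 15.2%) in vehicle rats and 3.92% (1.54% to 9.65%) in ethanol rats. These intervals cover counting error of pooled reads and leave out the spread between rats, so they do not compare the groups. All vehicle reads of miR-26a-3p came from rats 19 and 20.

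For miR-26b-3p, vehicle rats had 4.31 ± 1.53 CPM (mean ± SD, n = 4) and ethanol rats 4.41 ± 1.55 CPM (n = 8). It stood at rank 382 of all miRNAs by mean level, between miR-370-5p (4.55 CPM) and miR-17-1-3p (4.37 CPM). It did not differ from these neighbours beyond its spread, since miR-370-5p was higher in 5 and miR-17-1-3p lower in 5 of 12 libraries.

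Both hairpins were strongly biased to the 5p arm. For the 2 genes together there were 31753 reads of 5p for each read of 3p, with a 95% counting interval of 27370 to 37054 from the Poisson error of the 3p reads. This pooled ratio does not depend on how 5p reads were divided. It was 31841 (25284 to 40695) in vehicle rats and 31690 (26105 to 38865) in ethanol rats. These intervals leave out the spread between rats. Ratios of single rats ran from 27858 to 68265 in vehicle and from 22165 to 92876 in ethanol rats. Taken separately, with the uncertain 5p counts, miR-26b gave 16385 (14067 to 19203) and miR-26a gave 313499 (165146 to 685598).

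Of 176 hairpins with both arms listed and at least 1000 reads over the 12 libraries, 86 had more reads from the 5p arm. With 0.5 read added to each arm, the log2 ratio of 5p to 3p was 18.18 for miR-26a and 14.00 for miR-26b, and the median size over the 176, in either direction, was 5.74. From the highest ratio of 5p to 3p down, miR-26a ranked 3 and miR-26b ranked 8. By size of the ratio in either direction they ranked 3 and 11. These ranks are not settled, since miR-211, miR-100, miR-150, miR-149 and miR-185 had 0 reads of 3p, so that their ratios are lower bounds set by 5p depth, and since the 5p counts of miR-26a and miR-26b are uncertain.

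Across the 12 libraries, log2 CPM of the 2 arms of miR-26b showed no clear relation. For miR-26b the Pearson r between arms was -0.05 (permutation p = 0.874, adjusted p = 0.874) and rho was -0.13 (permutation p = 0.686, adjusted p = 0.991). Without ethanol rats 3 and 23 that r was 0.13, and within the ethanol libraries it was -0.32. For miR-26a, r was -0.57 (permutation p = 0.0526, adjusted p = 0.158) and rho was -0.36 (permutation p = 0.246, adjusted p = 0.493). Without vehicle rat 19 and ethanol rat 23 it was -0.71, and within the ethanol libraries -0.75. Values of miR-26a-3p rest on 0 to 3 reads, to which a prior count of 2 was added. They turn on single reads as well as on library size, so the r and rho for miR-26a are not read as a relation between its arms.

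The study asked whether 1 high dose of ethanol alters hippocampal miRNAs within hours, and none of the miR-26 members passed the test for such a change. For rno-miR-26a-5p, vehicle rats had 78413 ± 3640 CPM (mean ± SD, n = 4) and ethanol rats 75074 ± 4841 CPM (n = 8). The fitted log2 fold change of ethanol over vehicle was -0.06 with a standard error of 0.06 and a 95% confidence interval of -0.20 to 0.07, a fold of 0.957. Its edgeR quasi-likelihood p, adjusted over the 420 miRNAs by Benjamini and Hochberg's method, was 0.971. Levels in 4 of 8 ethanol rats were under the lowest vehicle level and 1 was over the highest (two-sided exact permutation test over 495 splits of the rats into 4 and 8, p = 0.246).

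For rno-miR-26b-5p, vehicle rats had 75131 ± 3385 CPM (mean ± SD, n = 4) and ethanol rats 71958 ± 4677 CPM (n = 8). The fitted log2 fold change was again -0.06, with a standard error of 0.06 and a 95% confidence interval of -0.20 to 0.07. Its edgeR adjusted p was 0.971 and its exact permutation p 0.251. The intervals of both 5p strands span log2 changes from -0.20 to 0.07. For rno-miR-26b-3p it was 0.01, with a standard error of 0.30 and a 95% confidence interval of -0.63 to 0.65. Its edgeR adjusted p was 1.00 and its exact permutation p 0.968, and the sign of this small value turned under 2 other normalizations. Its interval is much wider than that of the 5p strands, at 3 to 24 reads per library. In the fit without a filter, miR-26a-3p had an edgeR adjusted p of 0.919 over 601 miRNAs, and no fold is given because every library was at or under the floor of 3 counts.

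**Figure D4:**
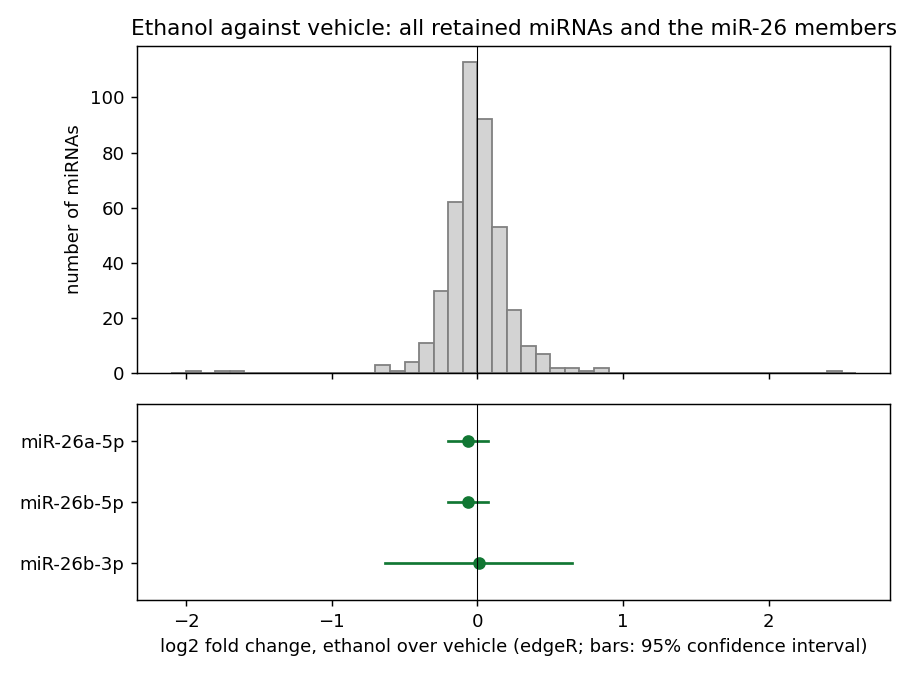
Upper panel, number of miRNAs at each log2 fold change of ethanol over vehicle for the 420 retained miRNAs. Lower panel, log2 fold change of the 3 retained miR-26 members (points) with 95% confidence intervals (bars); all 3 intervals cross 0, from -0.20 to 0.07 for both 5p strands and from -0.63 to 0.65 for miR-26b-3p.

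Across all 420 retained miRNAs, edgeR called 0 at an adjusted p under 0.05 (0%) and 17 at a raw p under 0.05 (4.05%), 10 lower and 7 higher after ethanol. With library totals alone the raw calls were 15 lower and 4 higher, with DESeq2-style size factors 7 lower and 11 higher, and with TMM computed without the miR-26 members 4 lower and 10 higher. DESeq2 called 1 at an adjusted p under 0.05, miR-133b-3p, and 16 at a raw p under 0.05. No miR-26 member was among the 17 calls of edgeR, and by raw p miR-26a-5p ranked 137, miR-26b-5p 140 and miR-26b-3p 407. Only 1 of the 420 miRNAs had groups that did not overlap in log2 CPM (0.238%), and the groups overlapped for each member. Counted as 1 feature, the summed 5p strands had a fitted log2 difference of -0.06 (standard error 0.07), at an edgeR adjusted p of 0.983, an alternative chosen after the data were seen.

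For the 4 members summed, the difference in mean log2 CPM was -0.06 (exact permutation p = 0.248). Scaled to library totals alone it was -0.10 (exact permutation p = 0.0505), and without ethanol rat 3, the rat with the lowest level, it was -0.01. As a percent of the library total, the 5p strands took 15.2% to 15.9% in vehicle rats (median 15.7%). In ethanol rats they took 13.6% to 16.1%, and the median of 14.4% was under the lowest vehicle value. The mean log2 library total was lower in ethanol rats by a difference of -0.38 (exact permutation p = 0.156). With the log2 library total as a covariate, the log2 fold change of miR-26a-5p was -0.01.

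Ratios within a library need no scaling, and none differed between the groups at an exact permutation p under 0.05. The log2 ratio of miR-26a-5p to miR-26b-5p averaged 0.062 (SD 0.0025) in the 4 vehicle and 0.061 (SD 0.0022) in the 8 ethanol rats, with exact permutation p = 0.798. Since this ratio varied less than independent counting gives, its test says little about the balance of the 2 strands. The log2 ratio of miR-26b-5p to miR-26b-3p averaged 14.12 (SD 0.53) and 14.02 (SD 0.63) in the same groups, with exact permutation p = 0.76. For miR-26a-5p to miR-26a-3p the averages were 17.80 (SD 1.00) and 17.82 (SD 0.79), with exact permutation p = 0.97. For miR-26a-3p to miR-26b-3p they were -3.63 (SD 1.04) and -3.73 (SD 0.87), with exact permutation p = 0.853. Both ratios with miR-26a-3p depend on the 0.5 read added to each count, since 6 of its 12 libraries are at 0, and the differences for both turned sign with 2 reads added.

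The miRNAs whose log2 CPM followed miR-26a-5p most closely over the 12 libraries were let-7b-5p (r = 0.85, rho = 0.88), miR-212-3p (r = 0.80, rho = 0.85) and miR-22-5p (r = 0.78, rho = 0.66), out of 417 retained miRNAs outside the family. The same 3 led the list for miR-26b-5p, with r of 0.85, 0.80 and 0.79. Let-7b-5p belongs to the let-7 family, and miR-212-3p is a miRNA induced by neuronal activity. Their mean levels were 803, 247 and 24.3 CPM, far below that of the miR-26 strands. These values describe the libraries, which share depth and scaling between all miRNAs, and were selected as the highest of many.

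Of the 13 listed miRNAs of the REST circuit and of dendritic spines, 13 were retained and edgeR called 0 of them at an adjusted and 0 at a raw p under 0.05 (the background is 4.05% for the raw p). Their log2 fold changes were negative for 12 and positive for 1, with a median of -0.08, beside 54.0% negative and a median of -0.02 over all 420. Under each other normalization 12 of the 13 were negative, and with the log2 library total as a covariate 11 were. With each rat left out, 10 (without vehicle rat 10) to 12 were negative. Since the list holds both arms of some hairpins, these signs are not independent. The neuronal miRNA miR-124-3p, which REST represses, averaged 3257 CPM (SD 143) in vehicle and 3078 CPM (SD 283) in ethanol rats. For miR-9a-5p, which targets Rest, the averages were 24307 CPM (SD 1412) and 23065 CPM (SD 1646). For miR-384-5p, which acts in spines, they were 1381 CPM (SD 40.5) and 1304 CPM (SD 93.2).

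Markers of neurons and of other cell types were read beside these levels. All 5 neuronal markers were present in every library, with a summed level of 33329 to 38463 CPM in vehicle rats and 30268 to 37850 in ethanol rats. Of these, miR-9a-5p alone averaged 23479 CPM over all libraries, so the neuronal sum mostly follows that miRNA. The 3 choroid plexus markers (miR-204-5p, miR-211-5p and miR-448-3p) summed to 28981 to 50272 CPM in vehicle rats and 16517 to 70888 in ethanol rats. Their mean log2 level showed no clear relation to miR-26a-5p (r = 0.07, permutation p = 0.828, adjusted p = 0.874; rho = -0.0070, permutation p = 0.991, adjusted p = 0.991) or to miR-26b-5p (r = 0.08, permutation p = 0.808, adjusted p = 0.874; rho = -0.0070, permutation p = 0.991, adjusted p = 0.991). Without ethanol rats 3 and 15 these r were -0.36 and -0.37, and within the ethanol libraries -0.08 and -0.06. The 4 vascular markers summed to 38690 to 48386 CPM in vehicle rats and 32606 to 67959 in ethanol rats. Of these, miR-143-3p alone averaged 46392 CPM over all libraries, so the vascular sum mostly follows that miRNA. The 3 oligodendrocyte markers summed to 9333 to 17660 and 9829 to 19013 CPM. Of 6 blood markers 5 were listed, with 618 to 750 and 565 to 982 CPM. The 5 muscle markers summed to 128 to 1766 CPM in vehicle rats and 112 to 1712 in ethanol rats (medians 1656 and 200), and miR-1-3p and miR-206-3p were at 0 in at least 1 library. None of these 6 lists differed between the groups at an exact permutation p under 0.05, with p from 0.0848 for muscle to 0.721 for blood. With 4 vehicle rats, that does not show the groups to be alike. The muscle list differed by -1.89 in log2 level, ethanol minus vehicle. With all rats edgeR called no muscle marker at an adjusted p under 0.05, and DESeq2 called miR-133b-3p. Without ethanol rat 16, edgeR called miR-1b, miR-133a-3p and miR-133b-3p. The part of other cell types in the levels of miR-26 was not tested beyond these values.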

How the data were processed

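Small RNA (20 to 30 nt) from 1 µg of total RNA per rat was sequenced for 37 cycles. Each deposited file lists expected counts (estimated counts) that the authors made for every mature miRNA, without scaling to library size. The submitters' processing notes name cutadapt, Partek and the build rn5. Their roles, the miRNA annotation and the division of shared reads are not given in the sources used here. Partial counts were rounded to whole numbers. Totals ranged from 1960704 to 4917928, and 3 counts were taken as the floor.

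Groups were taken from the sample titles. The tools were edgeR 4.0.16, DESeq2 1.42.0 and limma 3.58.1 in R 4.3.3, and Python 3.11.15. The 2 treatments were compared without covariates (the study used a two-sample test) by the quasi-likelihood test of edgeR on TMM-scaled counts, with Benjamini-Hochberg adjustment over 420 miRNAs. A miRNA with under 10 reads in at least 10 libraries was left out. The fit was tested on simulated data. Log2 CPM used a prior count of 2. Single measures were compared by two-sided exact permutation over all 495 splits into 4 and 8, and ratios used 0.5 read added to each count. A permutation p cannot fall below 0.00202. Libraries were pooled in sets for sequencing, but which set held which library is not given, so batches could not be compared. Rats are separate animals, but the paper states that they were housed in pairs and that a litter could give up to 2 pups to a condition. Cages and litters of single rats are not given, so the tests treat rats as independent.

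The members, lists and tests were chosen with earlier results of these data known. Named miRNAs are the members, the 3 miRNAs with the highest Pearson r to each 5p strand, the neighbours of each member in mean level and a list of 13 miRNAs of the REST circuit and spines. Markers of 6 cell types were listed. Alternatives covered normalization, filter, test, covariate, rounding, pseudocount and each rat left out. Summing the 5p strands was chosen after seeing the data. Sequences were taken from RefSeq (GRCr8), in which 688 of 753 names matched.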

Additional observations from a re-analysis of the deposited data

Results flagged for a closer look

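For 10 measures of the members and for the library total, each group was examined separately for a rat far from the rest. Of 22 groups, 1 held such a rat, against 1.1 by chance at 1 in 20. It was vehicle rat 10, the smallest vehicle library, whose log2 ratio of miR-26a-5p to miR-26b-5p was 0.058. The other vehicle rats all had 0.063, and the gap between them and rat 10 took 0.883 of the span of the group. Counting error of independent reads gives a log2 ratio an SD of 0.0045 on average over the libraries. Without this rat the difference of ethanol minus vehicle moved from -0.00040 to -0.0017, with exact permutation p = 0.236.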

How the results depend on the processing

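For miR-26a-5p and miR-26b-5p the log2 fold change stayed negative and above an adjusted p of 0.05 under every normalization, filter, test and covariate tried, from -0.10 (library totals alone) to -0.01 (log2 library total as a covariate). With each rat left out it ranged from -0.09 to -0.01 for both. The log2 fold change of miR-26b-3p turned to -0.020 with library totals alone and to -0.0031 with scaling to the library median, and was 0.23 with the log2 library total as a covariate. With each rat left out it ranged from -0.16 (without vehicle rat 10) to 0.14 (without vehicle rat 9). It was not tested under the filter of at least 10 reads in at least 10 libraries, which it missed. The number of miRNAs with an adjusted p under 0.05 was 1 with DESeq2, and 0 to 3 with each rat left out, with 3 without ethanol rat 16 (miR-1b and the 3p strands of miR-133a and miR-133b). The number with a raw p under 0.05 was 11 with the log2 library total as a covariate, and 5 (without vehicle rat 20) to 24 (without vehicle rat 19) with each rat left out. The ethanol minus vehicle difference in the log2 ratio of miR-26a-5p to miR-26a-3p was -0.080 with 1 and -0.19 with 2 reads added to each count, and that of miR-26a-3p to miR-26b-3p was 0.056 with 2 reads added. With each rat left out, these differences ranged from -0.33 to 0.37 for miR-26a-5p to miR-26a-3p, from -0.61 to 0.16 for miR-26a-3p to miR-26b-3p, from -0.27 to 0.16 for miR-26b-5p to miR-26b-3p and from -0.0017 to 0.00011 for miR-26a-5p to miR-26b-5p. The cause of these changes was not tested. For the members summed the range was -0.09 to -0.01. No paired analysis was possible because the groups share no animal numbers. At 0 to 24 reads per library, counting error limits every value of the 3p strands.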
